A study of Saccharomyces cerevisiae with 12 samples.

Results

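The genes described here encode subunits of the chromatin remodelling complexes of budding yeast and of its histone acetyltransferase and deacetylase complexes other than SAGA. They were taken from a list of 42 gene symbols: 9 for SWI/SNF with its shared subunits TAF14 and RTT102, 14 for RSC, 8 for NuA4, 5 for other remodelling ATPases, 3 for deacetylases and 3 for other acetyltransferases. Of these, 41 had a probe set among the 5449 genes measured. RSC30, a DNA-binding subunit of RSC, was named in the list and was not analysed here. RNA was measured on 12 Affymetrix yeast arrays, 3 replicate arrays for each of 4 groups of Saccharomyces cerevisiae. All groups are labelled MATa his3 leu2 met15 ura3. They comprise the wild type, strains with KANR in place of NUP60 (nup60) or of ADA2 (ada2), and a group labelled as lacking both, called the labelled double deletion here. Cells were grown in 50 mL of YEPD, a rich medium, at 30 °C and collected in mid-log phase. Each group was 1 strain, so a deletion and any other difference between the strains cannot be told apart, and the p-values measure the spread between these arrays.

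SWI/SNF and RSC are related machines that use ATP to slide or remove nucleosomes, and they are built around the homologous ATPases Snf2 and Sth1. SWI/SNF is recruited to particular inducible promoters, whereas RSC is abundant, essential and active at many promoters. NuA4 acetylates histone H4 through Esa1, and the deacetylases Rpd3 and Hda1 remove acetyl groups. Ada2 is a subunit of SAGA, the acetyltransferase complex left out of this list, and Nup60 is a nucleoporin of the nuclear basket, the part of the pore that faces chromatin.

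The deleted genes followed their labels: the mean log2 level of NUP60 was 12.53 in wild type, 6.37 in nup60, 12.23 in ada2 and 6.20 in the labelled double deletion, and that of ADA2 was 10.95, 10.72, 4.23 and 4.39. The last group departed from its label in other genes. URA3, mutant in all strains by the labels, was at 12.77 there and at 4.38 to 4.59 elsewhere. HMRA1, expressed in MATa cells, was at 4.38 there and at 11.17 to 11.47 elsewhere, while the α-cell pheromone gene MF(ALPHA)1 was at 14.51 there and at 4.78 to 5.19 elsewhere. Every difference given below for the labelled double deletion therefore cannot be told apart from a difference in URA3 and mating type. Another 2 arrays, wild-type array 1 and labelled double deletion array 3, stood apart in their poly-A spike controls, whose mean log2 level was 9.02 and 9.20 there and 6.71 to 8.02 elsewhere. Counts against wild type over the list and for its larger groups, and the interaction counts, are given with and without these 2 arrays. Calls against wild type that changed without them are named.

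All 41 genes were readily detected. Their log2 levels ran from 8.02 to 13.3, above a background of 5.62 set by probe sets for a second yeast, on every array. Differences were tested with limma across all 5449 genes, and the threshold for a call was 0.05 for the p adjusted by the Benjamini-Hochberg method. By limma's F test among the 4 groups, 37 of the 41 genes differed (90.2%), beside 86.2% of all genes. The 4 that did not pass were SNF5 (adjusted p = 0.332), SNF6 (0.0852), SWI3 (0.0673) and EAF7 (0.318). No gene of the list changed by 2-fold in any comparison. Each array measured the RNA of a whole culture, so fewer cells with a transcript and less transcript per cell cannot be told apart.

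In nup60 the genes of the list were mostly lower than in wild type. Of the 41 genes, 23 were lower (56.1%, beside 26.2% of all genes) and 1 was higher (2.44%, beside 25.1%), and the median log2 difference was -0.19 against -0.02 over all genes. In ada2 the same counts were 8 lower (19.5%, beside 23% of all genes) and 6 higher (14.6%, beside 22.7%), with a median of 0.02 against -0.01. Both shares lie near or below those of all genes, and are read here as gene by gene differences only. In the labelled double deletion, 24 genes were lower than in wild type (58.5%, beside 37.1% of all genes) and 6 were higher (14.6%, beside 36.1%), with a median of -0.34 against -0.01. These 3 comparisons share the wild-type arrays, so they are not independent.

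Without the 2 arrays that stood apart, the counts against wild type were 26 lower and 2 higher in nup60, where 33.6% and 30.3% of all genes passed in those directions. They were 8 lower and 14 higher in ada2, beside 30.1% and 31%, and 24 lower and 8 higher in the labelled double deletion, beside 39.2% and 40.7%. The fall in nup60 and in the labelled double deletion was therefore at least as frequent without these arrays, while the number of genes higher in ada2 rose from 6 to 14. Leaving out single arrays moved other counts past 1.5-fold: without wild-type array 1, 2 genes were higher in nup60, and the 8 genes lower in ada2 became 5 without wild-type array 1 or 2 and 4 without ada2 array 1 or 3.

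Some genes of the list that did not pass against wild type with all arrays in the fit passed when both arrays that stood apart were left out. In nup60 these were TAF14 (-0.237, adjusted p = 0.000213), RSC8 (-0.165, 0.00164), EAF1 (-0.135, 0.0188), SAS3 (-0.125, 0.0106) and RTT109 (-0.17, 0.0131), all lower, and YNG2 (0.212, 0.000549), which was higher, while HTL1 and NTO1 no longer passed. In ada2 the genes that then passed as higher were SWI1 (0.318, 0.000424), YNG2 (0.212, 0.000605), STH1 (0.187, 0.00235), SIN3 (0.15, 0.00771), NTO1 (0.146, 0.0482), EAF3 (0.136, 0.00553), TAF14 (0.121, 0.0106) and SWI3 (0.09, 0.0465), NPL6 passed as lower (-0.102, 0.0432), and EAF5 no longer passed. In the labelled double deletion EPL1 (0.222, 0.00876) and SIN3 (0.229, 0.000652) then passed as higher and SWI3 as lower (-0.112, 0.0209), and SNF12 no longer passed (0.0978).

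**Figure D1:**
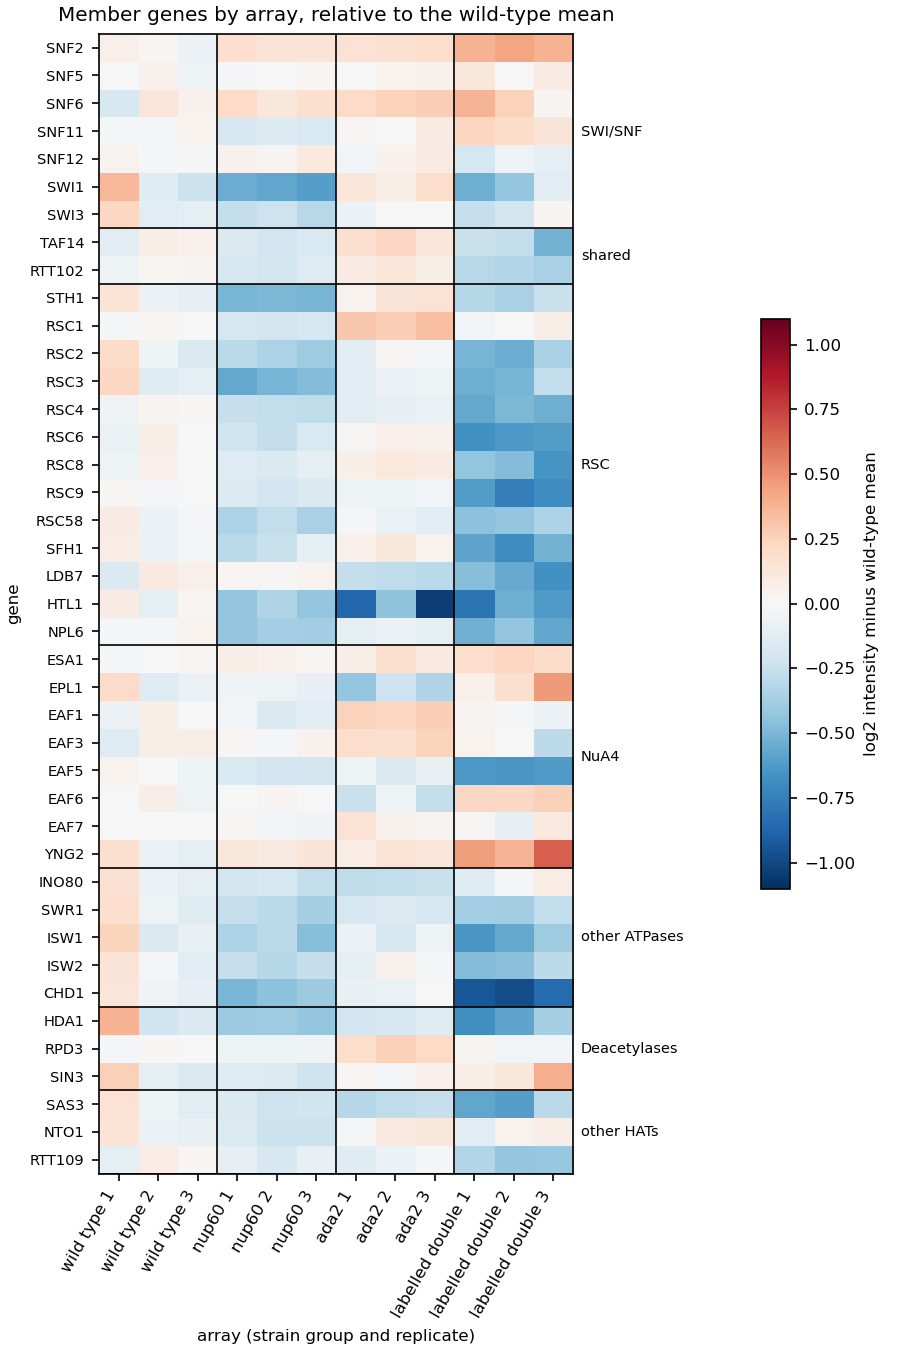
Log2 intensity of each of the 41 measured genes on each of the 12 arrays, as the difference from the mean of the 3 wild-type arrays (colour, log2 units), with genes grouped by complex and arrays by strain. The RSC block is mostly blue in nup60 and in the labelled double deletion, and wild-type array 1 is redder than the other 2 wild-type arrays for several genes, among them SWI1 and HDA1.

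RSC genes made up 11 of the 23 genes lower in nup60 and 12 of the 24 lower in the labelled double deletion. Of the 13 measured subunits, 11 were lower in nup60 and none higher, with a median log2 difference of -0.27. In the labelled double deletion 12 were lower and none higher, with a median of -0.52, and the exception was RSC1 (0.02 ± 0.035, SE, adjusted p = 0.674). In ada2, 3 were lower and 1 was higher, with a median of -0.05. Over all genes 26.2% were lower and 25.1% higher in nup60, 37.1% and 36.1% in the labelled double deletion, and 23% and 22.7% in ada2. The RSC counts in ada2 lie near or below these shares and are read gene by gene only. Without the 2 arrays that stood apart, the counts were 11 lower in nup60, 12 lower in the labelled double deletion, and 4 lower and 2 higher in ada2. The shares of all genes were then 33.6% lower in nup60, 39.2% lower in the labelled double deletion, and 30.1% lower and 31% higher in ada2.

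STH1 encodes the essential ATPase of RSC. Its log2 levels were 12.23, 12.02 and 11.99 on the wild-type arrays, 11.57, 11.59 and 11.57 in nup60, 12.12, 12.22 and 12.24 in ada2, and 11.77, 11.72 and 11.83 in the labelled double deletion. The nup60 and labelled double deletion arrays were all lower than every wild-type array, whereas the ada2 arrays overlapped wild type. The level in nup60 was 0.706 of that in wild type (log2 difference -0.50 ± 0.062, SE, n = 3 per group, adjusted p = 7.49e-05), and that in the labelled double deletion 0.809 (-0.31 ± 0.062, adjusted p = 0.00101). RSC3, which encodes a zinc-cluster protein that binds the DNA element read by RSC, stood at 11.53, 11.17 and 11.20 in wild type, at 10.74, 10.79 and 10.83 in nup60, at 11.18, 11.23 and 11.25 in ada2 and at 10.76, 10.79 and 11.03 in the labelled double deletion. It too was lower on all nup60 and labelled double deletion arrays than on any wild-type array. Its difference was -0.51 ± 0.094 in nup60 (adjusted p = 0.00107) and -0.44 ± 0.094 in the labelled double deletion (adjusted p = 0.00141).

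RSC9, an ARID-domain subunit, and RSC6, the homologue of SNF12 in SWI/SNF, fell in both nup60 and the labelled double deletion. RSC9 stood at 12.11, 12.08 and 12.10 in wild type, at 11.95, 11.89 and 11.94 in nup60, at 12.04, 12.04 and 12.07 in ada2, and at 11.48, 11.35 and 11.41 in the labelled double deletion. RSC6 stood at 11.84, 11.98 and 11.91 in wild type, at 11.69, 11.65 and 11.75 in nup60, at 11.93, 11.97 and 11.96 in ada2, and at 11.25, 11.28 and 11.30 in the labelled double deletion. For both genes the labelled double deletion arrays lay below all 9 others. RSC9 fell by 0.17 ± 0.038 in nup60 (adjusted p = 0.0035) and by 0.68 ± 0.038 in the labelled double deletion (3.4e-08), and RSC6 fell by 0.22 ± 0.042 (0.00151) and by 0.64 ± 0.042 (1.31e-07).

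The other subunits with a call in nup60 fell by 0.19 to 0.40. These were RSC1 (-0.19 ± 0.035) and RSC2 (-0.34 ± 0.085), the alternative bromodomain subunits that mark separate forms of RSC, RSC4 (-0.27 ± 0.034), a tandem bromodomain protein, RSC58 (-0.32 ± 0.050), SFH1 (-0.21 ± 0.062), the homologue of SNF5, and HTL1 (-0.40 ± 0.129) and NPL6 (-0.40 ± 0.042), accessory subunits that assemble with RSC3. RSC8, the homologue of SWI3, did not pass (-0.14 ± 0.054, adjusted p = 0.0525) with all arrays in the fit, nor did LDB7 (0.02 ± 0.066, adjusted p = 0.78), a further member of the accessory group. RSC8 passed as lower in nup60 without the 2 arrays that stood apart (-0.165, 0.00164), with array weights (-0.168, 0.000381), with the intensity trend (-0.138, 0.0354), with the ACT1 covariate (-0.095, 0.0499) and with only the groups compared (-0.138, 0.0344). In the labelled double deletion these genes other than RSC1 were lower by 0.41 to 0.65: RSC2 by 0.47, RSC4 by 0.53, RSC58 by 0.41, SFH1 by 0.60, HTL1 by 0.65, NPL6 by 0.51, RSC8 by 0.52 and LDB7 by 0.56. All 12 RSC calls in the labelled double deletion passed whichever array was left out. In nup60 the call of RSC1 was lost with each array's trend on coding length removed (-0.044, adjusted p = 0.596), which left 10 RSC genes lower there. The nup60 call of SFH1 was lost without nup60 array 1 or 2 (highest adjusted p = 0.066, at -0.17), and that of HTL1 without wild-type array 1 or 3 or nup60 array 1 or 3 (highest adjusted p = 0.0676, at -0.38) and without both arrays that stood apart (0.0618, at -0.36).

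In ada2 the RSC genes did not move together. HTL1, which encodes the smallest subunit of the list, stood at 9.14, 8.95 and 9.07 in wild type, at 8.61, 8.72 and 8.61 in nup60, at 8.19, 8.61 and 8.02 in ada2, and at 8.25, 8.52 and 8.43 in the labelled double deletion. All 9 deletion arrays lay below the 3 wild-type arrays, and the ada2 arrays spread more widely than those of the other groups. The ada2 level was 0.583 of that in wild type (-0.78 ± 0.129, adjusted p = 0.000603), the largest change of the list in ada2. RSC1 moved the other way, from 10.86, 10.91 and 10.89 in wild type to 11.19, 11.16 and 11.22 in ada2 (0.30 ± 0.035, adjusted p = 5.25e-05), with 10.70, 10.68 and 10.70 in nup60 and 10.86, 10.89 and 10.97 in the labelled double deletion. Its ada2 arrays were above, and its nup60 arrays below, all wild-type arrays. LDB7 fell from 11.83, 12.08 and 12.04 to 11.72, 11.70 and 11.69 in ada2 (-0.28 ± 0.066, adjusted p = 0.00551), with no overlap. RSC4 differed by -0.095 ± 0.034 (adjusted p = 0.0404), a call that ended on leaving out any array other than wild-type array 1 and the 3 of the labelled double deletion (highest adjusted p = 0.133, at -0.08 without ada2 array 1).

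**Figure D2:**
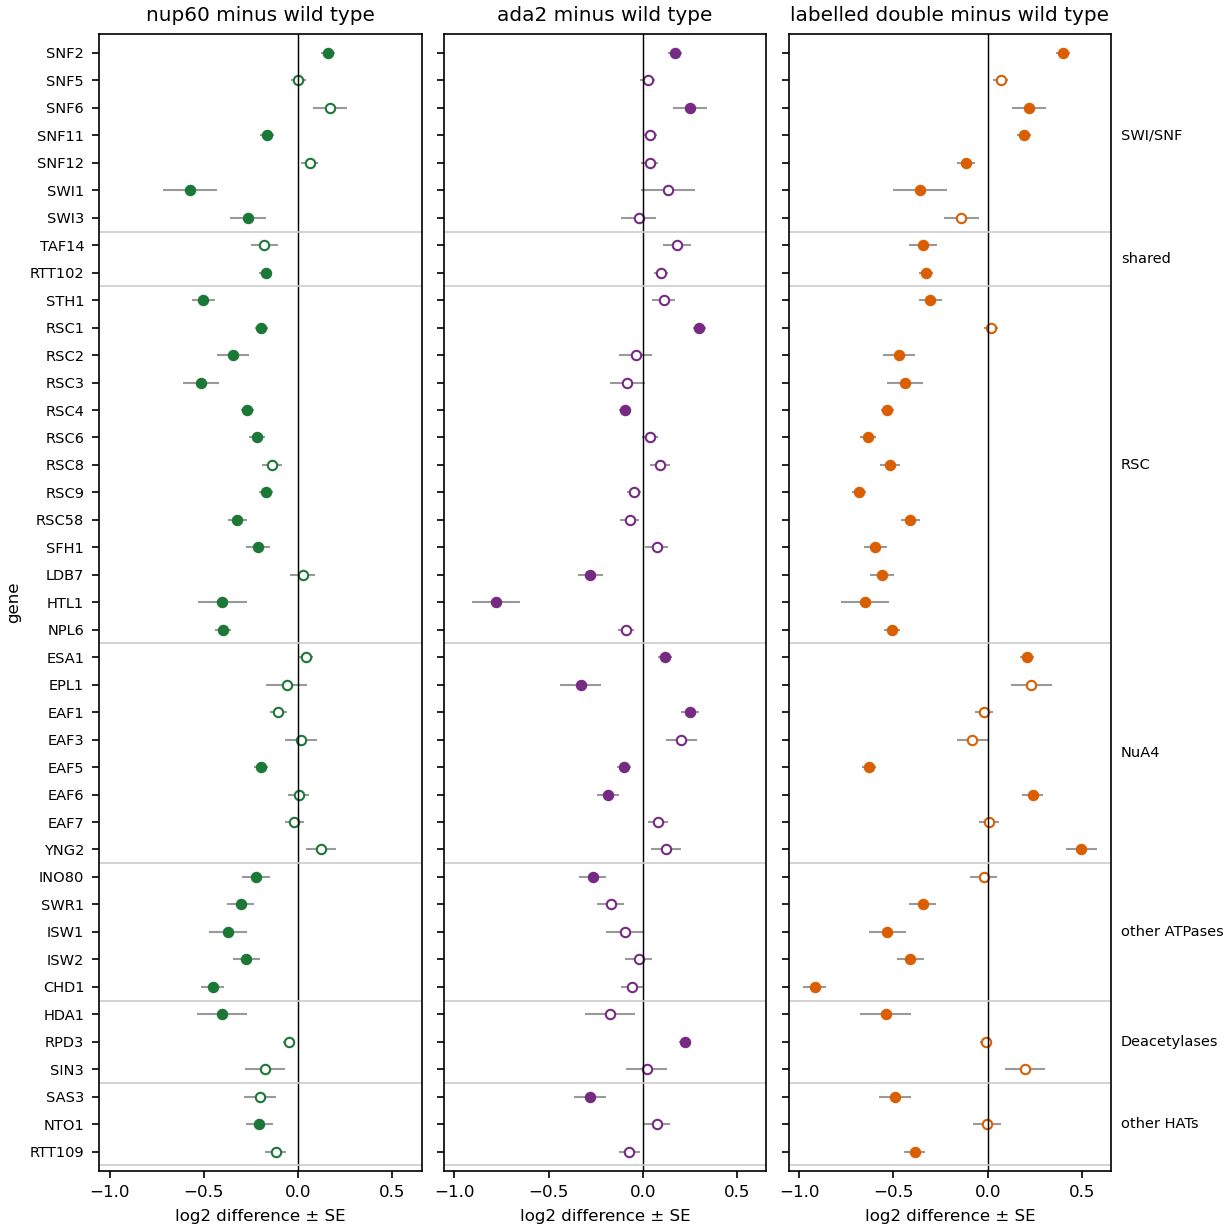
Log2 difference from wild type for the 41 measured genes in nup60, ada2 and the labelled double deletion (3 arrays per group, bars ± SE from limma), with filled points for an adjusted p below 0.05 and open points otherwise. RSC genes other than LDB7 (0.02) in nup60 and RSC1 (0.02) in the labelled double deletion lie left of 0 in those panels, and the RSC genes scatter around 0 in the ada2 panel, where HTL1 lies farthest left.

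SWI/SNF genes went in both directions in nup60 and in the labelled double deletion. Of the 7 subunits not shared with other complexes, 3 were lower and 1 higher in nup60 (median 0.001), none lower and 2 higher in ada2 (0.04), and 2 lower and 3 higher in the labelled double deletion (0.07). The lower and higher shares of all genes were 26.2% and 25.1% in nup60, 23% and 22.7% in ada2, and 37.1% and 36.1% in the labelled double deletion. Without the 2 arrays that stood apart, 3 were lower and 1 higher in nup60, and none lower and 4 higher in ada2. In the labelled double deletion 2 were then lower and 3 higher. The shares of all genes in that fit are given above. With 7 genes, the SWI/SNF counts are read here as gene by gene differences only. SNF2 encodes the ATPase. Its log2 levels were 12.33, 12.29 and 12.21 in wild type, 12.46, 12.42 and 12.42 in nup60, 12.43, 12.45 and 12.47 in ada2, and 12.66, 12.71 and 12.66 in the labelled double deletion. All deletion arrays lay above all wild-type arrays, and those of the labelled double deletion above all others. The differences were 0.16 ± 0.037 in nup60 (adjusted p = 0.00512), 0.17 ± 0.037 in ada2 (0.00324) and 0.40 ± 0.037 in the labelled double deletion (2.24e-06). SNF2 was the only gene of the list that was higher in nup60 with all arrays in the fit.

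SWI1 encodes an ARID-domain subunit that contacts activators. Its log2 levels were 11.19, 10.69 and 10.59 in wild type, against 10.28, 10.26 and 10.21 in nup60, 10.96, 10.90 and 11.01 in ada2 and 10.28, 10.40 and 10.71 in the labelled double deletion. The nup60 arrays lay below all wild-type and ada2 arrays. The labelled double deletion overlapped wild type through its array 3, which is 1 of the 2 arrays that stood apart. SWI1 fell by 0.57 ± 0.143 in nup60 (adjusted p = 0.00673). Without the 2 arrays that stood apart the difference there was -0.389 (0.000114), smaller in size than those of STH1 (-0.426), NPL6 (-0.411) and RSC3 (-0.399), and in ada2 it was higher than wild type (0.318, 0.000424). Its call in the labelled double deletion (-0.36 ± 0.143, adjusted p = 0.0416) ended on leaving out any array other than wild-type array 2 or 3 or labelled double deletion array 3 (highest adjusted p = 0.147, at -0.27 without array 1 of that group).

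SWI3, a core subunit, was also lower in nup60 (-0.27 ± 0.094, adjusted p = 0.0351). This call was lost without wild-type array 1 (-0.15, adjusted p = 0.0995) and without any of the nup60 arrays, and without both arrays that stood apart the difference was -0.15 (adjusted p = 0.00389). SNF11, a small subunit that binds Snf2, moved in opposite directions. It stood at 11.15, 11.15 and 11.21 in wild type, at 10.99, 11.02 and 11.00 in nup60, at 11.20, 11.17 and 11.26 in ada2 and at 11.40, 11.37 and 11.31 in the labelled double deletion. The nup60 arrays lay below and the labelled double deletion arrays above all wild-type and ada2 arrays (-0.16 ± 0.037, adjusted p = 0.00368, and 0.19 ± 0.037, adjusted p = 0.000679).

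SNF6 and SNF12 passed narrowly. SNF6, a subunit found in SWI/SNF of yeasts, stood at 11.39, 11.70 and 11.62 in wild type, 11.78, 11.69 and 11.74 in nup60, 11.78, 11.83 and 11.84 in ada2 and 11.95, 11.83 and 11.60 in the labelled double deletion, and it did not pass the F test above. Its difference was 0.25 ± 0.090 in ada2 (adjusted p = 0.0437) and 0.22 ± 0.090 in the labelled double deletion (0.0457). The first call was lost on leaving out any array other than wild-type array 2 and labelled double deletion arrays 1 and 3 (highest adjusted p = 0.135, at 0.16 without wild-type array 1), and the second on leaving out any array other than wild-type array 2 and labelled double deletion array 3 (0.179, at 0.14 without array 1 of that group). SNF12 was lower in the labelled double deletion (-0.12 ± 0.046, adjusted p = 0.0408), a call lost on leaving out any of 8 arrays, namely any wild-type array, nup60 array 1 or 2, ada2 array 2 and labelled double deletion arrays 1 and 3 (highest adjusted p = 0.159, at -0.08). SNF5, a core subunit, passed in no comparison, with differences of 0.001, 0.03 and 0.07 ± 0.040.

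The shared subunits TAF14, a YEATS-domain protein also found in general transcription factors, and RTT102, a small subunit of both SWI/SNF and RSC, were both lower in the labelled double deletion, and RTT102 was lower in nup60. RTT102 stood at 11.79, 11.87 and 11.87 in wild type, 11.67, 11.64 and 11.70 in nup60, 11.93, 11.98 and 11.91 in ada2 and 11.54, 11.52 and 11.49 in the labelled double deletion. The 4 groups did not overlap. RTT102 fell by 0.17 ± 0.036 in nup60 (adjusted p = 0.00258) and by 0.33 ± 0.036 in the labelled double deletion (1e-05), and in ada2 it differed by 0.10 ± 0.036 (0.0509). TAF14 differed by -0.18 ± 0.073 in nup60 (0.0613), by 0.18 ± 0.073 in ada2 (0.0649) and by -0.34 ± 0.073 in the labelled double deletion (0.00137).

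SWI/SNF and RSC share a design in which several subunits are homologues. The ratio of a pair within an array is the log2 difference between its probe sets. Only the change of this ratio from its wild-type mean is read here. The pairs and this ratio were chosen after the gene values were seen, and are given as a description. The log2 ratio of STH1 to SNF2 differed from its wild-type mean by -0.69 to -0.64 in nup60 and by -0.79 to -0.63 in the labelled double deletion, while the 3 wild-type arrays spanned -0.07 to 0.09 and ada2 spanned -0.12 to -0.03. Relative to SNF2, STH1 thus shifted by -0.66 ± 0.024 (SD, n = 3) in nup60, by -0.71 ± 0.083 in the labelled double deletion and by -0.06 ± 0.053 in ada2. SFH1 relative to SNF5 shifted by -0.21 ± 0.085, -0.67 ± 0.048 and 0.05 ± 0.047 in the same order, and RSC6 relative to SNF12 by -0.28 ± 0.010, -0.52 ± 0.054 and 0.004 ± 0.043. For these 3 pairs the nup60 and labelled double deletion arrays lay below all wild-type arrays, and the ada2 arrays overlapped wild type.

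For RSC8 relative to SWI3 the wild-type arrays spread from -0.28 to 0.18 and overlapped every other group, including the labelled double deletion at -0.68 to -0.18. This pair shifted by 0.127 ± 0.067 (SD) in nup60, by -0.379 ± 0.265 in the labelled double deletion and by 0.115 ± 0.013 in ada2. Its nup60 mean thus did not fall, unlike those of the pairs above. The overlap with the labelled double deletion came through wild-type array 1 (-0.28), which is 1 of the 2 arrays that stood apart. Wild-type arrays 2 and 3, at 0.18 and 0.10, lay above all labelled double deletion arrays. Within RSC, the ratio of RSC1 to RSC2 was 0.34 ± 0.075 above its wild-type mean in ada2 and 0.49 ± 0.061 above it in the labelled double deletion, both beyond the wild-type range of -0.23 to 0.16, while nup60 (0.15 ± 0.046) overlapped it. The ratio of the remodelling ATPases ISW1 and ISW2, a pair outside both complexes, overlapped wild type in all 3 deletion groups, with shifts of -0.10, -0.08 and -0.12 in nup60, ada2 and the labelled double deletion.

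**Figure D3:**
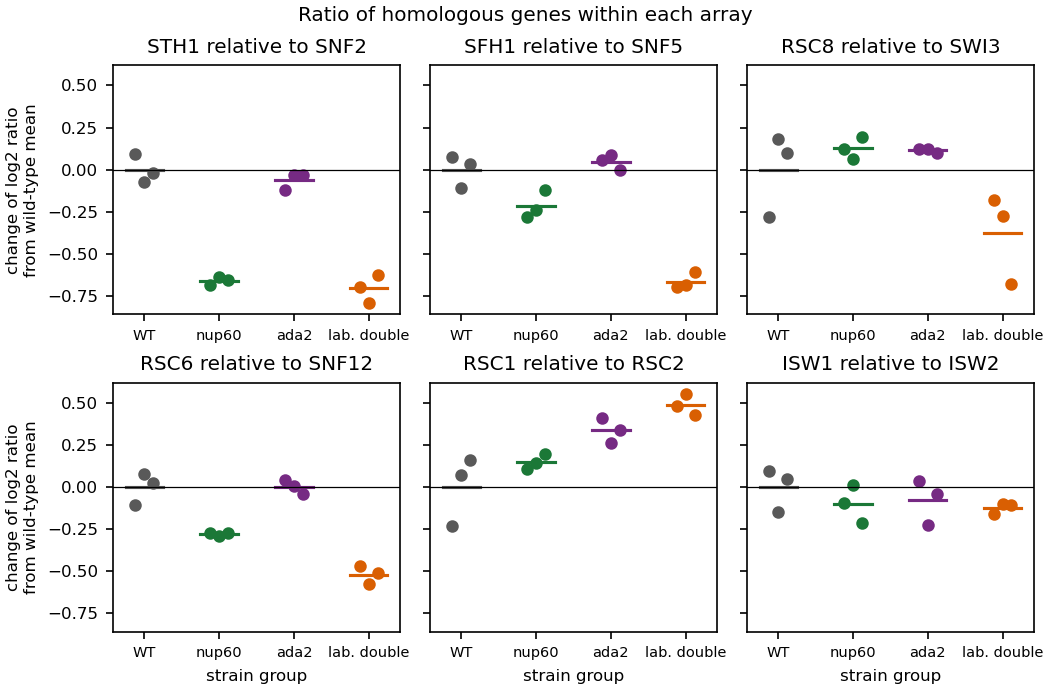
Change of the within-array log2 ratio of homologous genes from its mean over the 3 wild-type arrays, with a point per array and a line at each group mean, for 6 pairs in the 4 strain groups. STH1 relative to SNF2 is at or below -0.63 on all nup60 and labelled double deletion arrays and at or above -0.12 on all wild-type and ada2 arrays.

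NuA4 subunits changed in both directions. Of 8 genes, 1 was lower and none higher in nup60 (median -0.01), 3 were lower and 2 higher in ada2 (0.10), and 1 was lower and 3 were higher in the labelled double deletion (0.11). Over all genes 26.2% were lower and 25.1% higher in nup60, 23% and 22.7% in ada2, and 37.1% and 36.1% in the labelled double deletion. Without the 2 arrays that stood apart, 2 were lower and 1 higher in nup60, and 2 lower and 4 higher in ada2. In the labelled double deletion 1 was then lower and 4 higher. The shares of all genes in that fit are given above. With 8 genes, the NuA4 counts are read here as gene by gene differences only. The catalytic core contains Esa1, Epl1, Yng2 and Eaf6. ESA1, the essential acetyltransferase gene, was near wild type in nup60 (0.04 ± 0.036, adjusted p = 0.325) and higher in ada2 (0.12 ± 0.036, 0.0198) and in the labelled double deletion (0.21 ± 0.036, 0.000297). The ada2 call of ESA1 was lost without wild-type array 2 or ada2 array 2 (highest adjusted p = 0.0777, at 0.09).

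YNG2, whose product carries a PHD finger, stood at 11.21, 10.96 and 10.93 in wild type, 11.16, 11.13 and 11.18 in nup60, 11.12, 11.19 and 11.17 in ada2 and 11.49, 11.41 and 11.69 in the labelled double deletion. The labelled double deletion arrays lay above all 9 others (0.50 ± 0.081, adjusted p = 0.000196), the largest rise of the list in that group. EAF6, which NuA4 shares with the NuA3 acetyltransferase, stood at 11.05, 11.13 and 11.00 in wild type, 11.05, 11.09 and 11.05 in nup60, 10.82, 11.02 and 10.80 in ada2 and 11.29, 11.29 and 11.32 in the labelled double deletion. It was lower in ada2 (-0.18 ± 0.056, adjusted p = 0.0199), where 1 of the 3 arrays lay inside the wild-type range, and higher in the labelled double deletion (0.24 ± 0.056, 0.00255), without overlap. The ada2 call of EAF6 was lost without wild-type array 2 or ada2 array 1 or 3 (highest adjusted p = 0.083, at -0.14).

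EPL1, which joins the catalytic core to the rest of NuA4, stood at 11.60, 11.24 and 11.31 in wild type, 11.34, 11.32 and 11.30 in nup60, 10.95, 11.15 and 11.05 in ada2 and 11.44, 11.55 and 11.85 in the labelled double deletion. The ada2 arrays lay below and, leaving wild-type array 1 aside, the labelled double deletion arrays lay above all others. EPL1 was lower in ada2 than in wild type (-0.33 ± 0.110, adjusted p = 0.0311). This call was lost without wild-type array 1 or ada2 array 1 or 3 (highest adjusted p = 0.106, at -0.28). EPL1 was 0.56 ± 0.110 higher in the labelled double deletion than in ada2 (0.000887).

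EAF1, the platform on which NuA4 assembles, stood at 10.66, 10.78 and 10.71 in wild type, 10.69, 10.56 and 10.60 in nup60, 10.97, 10.94 and 10.99 in ada2 and 10.75, 10.70 and 10.65 in the labelled double deletion. The ada2 arrays lay above all others (0.25 ± 0.046, adjusted p = 0.00121). EAF3, a chromodomain subunit that also serves the Rpd3S deacetylase, passed against wild type in no group with all arrays in the fit (0.02, 0.21 and -0.08 ± 0.083 in nup60, ada2 and the labelled double deletion), and neither did EAF7 (-0.02, 0.08 and 0.01 ± 0.052), which partners Eaf3 and Eaf5. EAF3 was called higher in ada2 under 5 alternatives: without both arrays that stood apart (0.136, adjusted p = 0.00553), with array weights (0.00621), with the ACT1 covariate (0.00674), with the length trend removed (0.0201) and with a second quantile normalization (0.0458). It was also called without labelled double deletion array 3 (0.205, 0.0114).

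EAF5 fell in the labelled double deletion to 10.18, 10.18 and 10.20 from 10.86, 10.82 and 10.77 in wild type, with 10.64, 10.60 and 10.62 in nup60 and 10.76, 10.65 and 10.73 in ada2. The groups did not overlap, and the labelled double deletion lay farthest below wild type. The difference was -0.63 ± 0.037 in the labelled double deletion (adjusted p = 5.57e-08) and -0.19 ± 0.037 in nup60 (0.00143). This gene has further probe sets among the array's controls, placed at the 3′ end, the middle and the 5′ end of its transcript, and they gave -0.49, -0.62 and -0.63 in the labelled double deletion and -0.26, -0.21 and -0.28 in nup60. In ada2 the gene's probe set differed by -0.10 ± 0.037 (adjusted p = 0.048), and the 3 control probe sets by -0.14, -0.06 and -0.12, none of which passed. The ada2 call of EAF5 ended without 9 of the 12 arrays, all but wild-type array 3, ada2 array 1 and labelled double deletion array 3 (highest adjusted p = 0.175, at -0.07), and without both arrays that stood apart (0.0819). The labelled double deletion differed from the other groups in URA3 as well as in the mating-type genes given above. EAF5 lies 5 genes from URA3. The genes between and around them that were measured moved both ways in the labelled double deletion, with RIP1, a respiratory chain gene, at 1.498 ± 0.102, TIM9, a mitochondrial import gene, at -0.49 ± 0.056, SNU13, a splicing and ribosomal RNA factor gene, at -0.37 ± 0.039 and MMS21, a SUMO ligase gene, at 0.09 ± 0.324 (adjusted p = 0.813). The part of the URA3 difference in EAF5 was not tested.

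The remodelling ATPases outside SWI/SNF and RSC were lower in nup60, all 5 of them, with a median of -0.30. In ada2 1 was lower and none higher (-0.10), and in the labelled double deletion 4 were lower and none higher (-0.41). The shares of all genes that were lower and higher were 26.2% and 25.1% in nup60, 23% and 22.7% in ada2, and 37.1% and 36.1% in the labelled double deletion. Without the 2 arrays that stood apart, all 5 were lower in nup60, with a smaller median of -0.211. In ada2 1 was then lower (median 0.011) and in the labelled double deletion 4 were (-0.40), with none higher. The shares of all genes lower were then 33.6%, 30.1% and 39.2%. CHD1 encodes a nucleosome-spacing ATPase that travels with elongating polymerase. It stood at 11.68, 11.51 and 11.46 in wild type, 11.04, 11.10 and 11.15 in nup60, 11.46, 11.47 and 11.55 in ada2 and 10.61, 10.57 and 10.70 in the labelled double deletion. Wild type and ada2 overlapped, nup60 lay below both and the labelled double deletion below all other arrays. The level of CHD1 was 0.731 of wild type in nup60 (-0.45 ± 0.060, adjusted p = 0.000125) and 0.529 in the labelled double deletion (-0.92 ± 0.060, adjusted p = 1.23e-07), the largest change of the list in any comparison. All 5 of these genes are long, with coding lengths of 3363 to 4545 bp. With each array's trend on length removed, 4 were lower in nup60 (median -0.109) and 4 in the labelled double deletion (median -0.424), and INO80 no longer passed in nup60 (-0.023, adjusted p = 0.529).

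ISW1 and ISW2, the spacing ATPases of the ISWI family, fell by 0.37 ± 0.10 and 0.28 ± 0.072 in nup60 (adjusted p = 0.00964 and 0.00879) and by 0.53 ± 0.10 and 0.41 ± 0.072 in the labelled double deletion (0.000574 and 0.000361). SWR1, which deposits the histone variant Htz1, fell by 0.30 ± 0.071 in nup60 (0.00483) and by 0.34 ± 0.071 in the labelled double deletion (0.00115). Without the 2 arrays that stood apart, the nup60 differences were smaller. They were -0.253 for ISW1 (adjusted p = 0.00423), -0.204 for ISW2 (0.0047) and -0.211 for SWR1 (0.00109). INO80, the ATPase of the complex of that name, had another pattern. It stood at 11.52, 11.30 and 11.25 in wild type, 11.16, 11.16 and 11.08 in nup60, 11.08, 11.09 and 11.11 in ada2 and 11.23, 11.34 and 11.44 in the labelled double deletion. Both single deletions lay below wild type (-0.22 ± 0.072, adjusted p = 0.024, in nup60 and -0.27 ± 0.072, 0.0116, in ada2), and the labelled double deletion overlapped wild type (-0.02 ± 0.072, 0.802). The nup60 call of INO80 was lost without wild-type array 1 or nup60 array 3 (highest adjusted p = 0.0811, at -0.20), and without both arrays that stood apart the difference was -0.14 (0.0135).

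Among the deacetylase genes, HDA1, a class II catalytic subunit, read 11.13, 10.53 and 10.58 in wild type, 10.35, 10.36 and 10.33 in nup60, 10.54, 10.56 and 10.62 in ada2 and 10.07, 10.16 and 10.38 in the labelled double deletion. Wild-type array 1 lay far above the other 2 wild-type arrays, and nup60 lay below all 3. The difference in nup60 was -0.40 ± 0.134 (adjusted p = 0.028) with all arrays and -0.21 (adjusted p = 0.000922) without the 2 arrays that stood apart, and the call was lost without any of the nup60 arrays (highest adjusted p = 0.0702, at -0.39). In the labelled double deletion HDA1 was lower by 0.54 ± 0.134 (0.00369).

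RPD3, the class I catalytic subunit, was higher in ada2, at 12.60, 12.67 and 12.62 against 12.40, 12.42 and 12.40 in wild type, 12.35, 12.35 and 12.37 in nup60 and 12.44, 12.38 and 12.38 in the labelled double deletion. The ada2 arrays lay above all others (0.22 ± 0.032, adjusted p = 0.000212). SIN3, the scaffold that holds Rpd3, passed against wild type in no group with all arrays in the fit (-0.17, 0.02 and 0.20 ± 0.107), and its wild-type array 1, at 12.83, lay above the other 2 at 12.47 and 12.41.

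Of the other acetyltransferase genes, SAS3, the catalytic subunit of NuA3, stood at 11.31, 11.11 and 11.04 in wild type, 10.99, 10.93 and 10.93 in nup60, 10.84, 10.88 and 10.89 in ada2 and 10.58, 10.54 and 10.86 in the labelled double deletion. All deletion arrays lay below all wild-type arrays. SAS3 fell by 0.28 ± 0.084 in ada2 (adjusted p = 0.0192) and by 0.49 ± 0.084 in the labelled double deletion (0.000299), and in nup60 it differed by -0.20 ± 0.084 (0.0652). The ada2 call of SAS3 was lost without wild-type array 1 or ada2 array 1 (highest adjusted p = 0.0605, at -0.27). NTO1, its partner in NuA3, passed in nup60 (-0.21 ± 0.072, adjusted p = 0.0328), and this call was lost without wild-type array 1 (-0.13, 0.104), nup60 array 2 or nup60 array 3, and without both arrays that stood apart (-0.13, 0.0653). RTT109, which acetylates newly made histone H3, fell in the labelled double deletion (-0.39 ± 0.056, adjusted p = 7.74e-05). It did not pass in nup60 (-0.12, 0.102) or in ada2 (-0.07, 0.325).

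The single deletions were also compared with each other, which leaves the wild-type arrays out of the difference. In nup60, 22 of the 41 genes were lower than in ada2, beside 26.9% of all genes, and 3 were higher, beside 25.9%, with a median of -0.20 against -0.01 over all genes. All 13 RSC genes passed, 11 lower and 2 higher. STH1 (-0.61 ± 0.062, adjusted p = 1.17e-05) and SWI1 (-0.71 ± 0.143, 0.00171) had the largest falls, and HTL1 (0.38 ± 0.129, 0.0293) and LDB7 (0.30 ± 0.066, 0.00265) were higher in nup60 than in ada2. EAF6 was the other gene higher in nup60. Among the RSC genes, RSC9 no longer passed without nup60 array 2 or ada2 array 3 (highest adjusted p = 0.0734, at -0.10). The calls of HTL1 and EAF6 were lost without ada2 array 1 or 3 (highest adjusted p = 0.118, at 0.25, and 0.0645, at 0.15), and that of HTL1 also without any of the nup60 arrays. The HTL1 call was also lost with a second quantile normalization (0.202, adjusted p = 0.12). Without the 2 arrays that stood apart, EPL1 (0.27, adjusted p = 0.0011) and SAS3 (0.079, 0.0441) also passed as higher in nup60 than in ada2, and EAF3, EAF5, SWR1, HDA1 and SIN3 as lower, by 0.094 to 0.229.

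Against nup60, 13 genes were lower in the labelled double deletion (31.7%, beside 30.6% of all genes) and 11 were higher (26.8%, beside 33.1%). Both shares lie near or below those of all genes, and are read here as gene by gene differences only. LDB7 (-0.58 ± 0.066, adjusted p = 2.1e-05) and RSC9 (-0.51 ± 0.038, 9.51e-07) fell most, and YNG2 (0.37 ± 0.081, 0.00205) and SIN3 (0.37 ± 0.107, 0.0106) rose most, while without the 2 arrays that stood apart SNF11 (0.382, 6.07e-06) did. Without labelled double deletion array 3, 7 genes were higher instead of 11, and the calls of STH1 (0.17, adjusted p = 0.0557), EPL1 (0.18, 0.144), INO80 (0.15, 0.108) and NTO1 (0.16, 0.0948) were lost. With the length trend removed, the differences of STH1 (-0.001, 0.978) and INO80 (-0.004, 0.913) from nup60 changed sign and their calls were lost, as were those of SNF2 (0.026, 0.71), RSC1 (0.058, 0.462), NPL6 (-0.064, 0.133) and NTO1 (0.081, 0.0957). Without both arrays that stood apart NPL6 no longer passed (-0.079, 0.0885), SNF6 and EAF1 also passed as higher, and RSC2, RSC58, ISW1, ISW2 and HDA1 as lower. Against ada2, 27 genes were lower in that group, beside 33.9% of all genes, and 7 were higher, beside 35.2%. CHD1 (-0.86 ± 0.060, 3.2e-07) and RSC6 (-0.68 ± 0.042, 1.35e-07) fell most with all arrays in the fit, EPL1 (0.56, given above) and EAF6 (0.42 ± 0.056, 4.83e-05) rose most, and 12 of 13 RSC genes were lower, HTL1 being the exception (0.13 ± 0.129, 0.395). With a second quantile normalization the HTL1 difference from ada2 changed sign and passed as lower (-0.313, 0.0182). SWI3 (-0.202, 0.000442) and EAF7 (-0.119, 0.0363) also passed as lower without the 2 arrays that stood apart.

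The design also asks whether the labelled double deletion departs from the sum of both single deletions. This interaction, on the log2 scale, passed for 12 genes below the sum, beside 18.5% of all genes, and for 5 above it, beside 20.6%. The genes below the sum included 6 RSC genes, both shared subunits and CHD1. RSC8 did not pass in either single deletion with all arrays in the fit (-0.14, adjusted p = 0.0525, and 0.09, 0.19), and was lower by 0.52 in the labelled double deletion, an interaction of -0.47 ± 0.076 (adjusted p = 0.000889). For RSC9 the single differences were -0.17 and -0.05, and the interaction was -0.46 ± 0.054 (0.0001). Above the sum, EPL1 had an interaction of 0.62 ± 0.156 (0.00992), which was 0.40 without the 2 arrays that stood apart (0.00334), and HTL1 one of 0.53 ± 0.182 (0.0405). STH1 (0.09 ± 0.088, 0.453), RSC3 (0.16 ± 0.133, 0.366) and SWI1 (0.08 ± 0.202, 0.767) did not pass. With the length trend removed STH1 lay below the sum (-0.152, 0.0354). Without the 2 arrays that stood apart, 20 genes lay below the sum, beside 22.6% of all genes, and 4 above it, beside 25.7%. SWI1 then passed with the sign turned (-0.225, 0.0237), RSC1, RSC2, EAF3, ISW1, ISW2, HDA1 and SAS3 also passed below the sum, and HTL1 no longer passed (0.47, 0.0987). The HTL1 call was also lost on leaving out any array other than wild-type array 2, ada2 array 2 and labelled double deletion array 1 (highest adjusted p = 0.0905, at 0.49). It was lost as well with a second quantile normalization (0.272, 0.155) and with array medians centred (0.477, 0.0526).

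**Figure D4:**
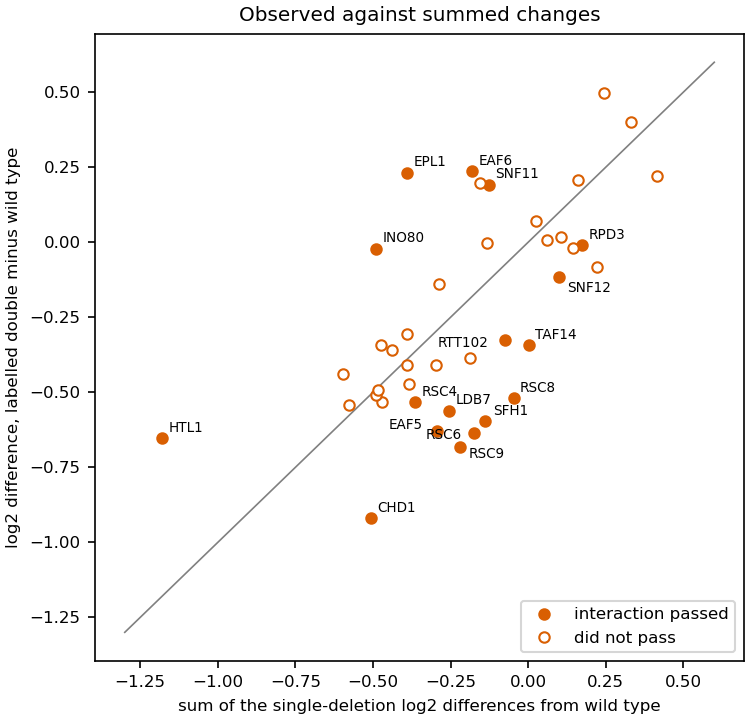
Log2 difference of the labelled double deletion from wild type (vertical axis) against the sum of the nup60 and ada2 differences (horizontal axis) for the 41 genes, with the line of equality, filled points where the interaction passed at an adjusted p below 0.05 and open points elsewhere. Several RSC genes and CHD1 lie below the line, and EPL1, EAF6, INO80, SNF11 and HTL1 above it.

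Gene length moved with these results. Long genes read high on both arrays that stood apart: on wild-type array 1 the 19 genes of the list with a coding length over 2000 bp lay a median of 0.25 above the other 2 wild-type arrays, and the 22 shorter genes lay at -0.03. On labelled double deletion array 3 the same medians were 0.18 and -0.01. Across the 41 genes the Spearman correlation of length with the deviation was 0.57 and 0.51 on these arrays, and over all 5449 genes 0.49 and 0.42, as a description over genes that share an array. On the other arrays it ran from -0.68 to 0.47 over the list and from -0.50 to 0.41 over all genes. The highest of these values were on ada2 array 3, where the medians of the longer and shorter genes were 0.04 and -0.003. On labelled double deletion array 3, the log2 excess of the 3′ over the 5′ control probe sets was 1.40 for EAF5 and 3.09 for SRB4, above the 0.88 to 1.08 and 2.63 to 2.73 of the other arrays, wild-type array 1 among them.

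With length, the nup60 differences correlated at -0.38 over the list and -0.24 over all genes, and at -0.16 and -0.12 without the 2 arrays. The genes over 2000 bp had a median of -0.27 in nup60 and the shorter ones -0.15, while over all genes the medians were -0.16 and 0.01. With each array's trend on length removed, 22 genes of the list were lower in nup60, beside 26.5% of all genes, and 1 was higher, beside 29.5%, with a median of -0.12. In the labelled double deletion 25 were lower, beside 38.9%, and 8 higher, beside 38.1%. For RSC the counts were 10 lower in nup60 (median -0.22) and 12 lower in the labelled double deletion (-0.53). The nup60 calls of RSC1, INO80 and NTO1 (-0.091, adjusted p = 0.0756) were lost with this trend removed, and TAF14 (-0.202, 0.00527) and RTT109 (-0.129, 0.0345) passed as lower.

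**Figure D5:**
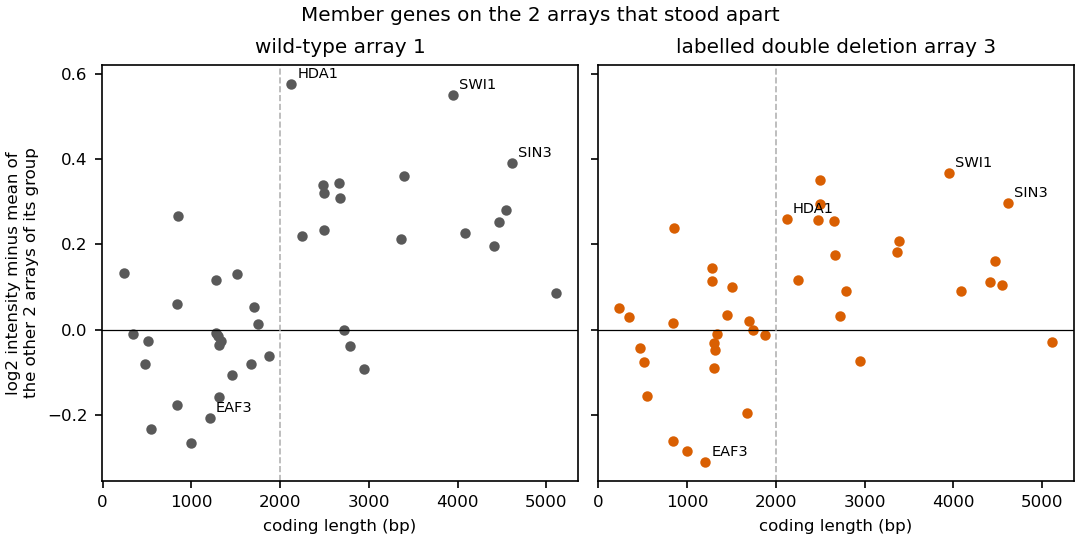
Log2 intensity on wild-type array 1 (left) and labelled double deletion array 3 (right) minus the mean of the other 2 arrays of the group, against coding length in bp, for the 41 genes; the dashed line marks 2000 bp. Most genes over 2000 bp lie above 0 on both arrays, with HDA1 at 0.58 on wild-type array 1.

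A further 67 genes encode other subunits of the same complexes and of related acetyltransferases and deacetylases. In nup60, 17 were lower (25.4%) and 9 higher (13.4%), with a median of -0.03. In ada2, 8 were lower (11.9%) and 12 higher (17.9%), with a median of 0.01, and in the labelled double deletion 25 were lower (37.3%) and 15 higher (22.4%), with a median of -0.06. With all arrays in the fit, the shares of lower genes, pooled over these 67, lie near or below those of all genes given above. Without the 2 arrays that stood apart, 27 were lower and 11 higher in nup60, beside 33.6% and 30.3% of all genes. The lower share in nup60 then lay above that of all genes. In ada2, 15 were then lower and 19 higher, beside 30.1% and 31%. In the labelled double deletion 27 were lower and 18 higher, beside 39.2% and 40.7%. By complex, with all arrays, the counts were uneven. In nup60, 7 of 12 further INO80 genes were lower and 1 higher (median -0.15, beside 26.2% of all genes lower). None of 11 further genes of the Rpd3 complexes passed there. In the labelled double deletion, 5 of 6 further ISWI genes were lower and none higher (median -0.31, beside 37.1% of all genes lower).

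The largest changes among them, up to 2 in each direction for each comparison with wild type, were the following. HPA2, an acetyltransferase gene, read 8.46, 8.76 and 8.60 in wild type, 9.52, 9.48 and 9.49 in nup60, 8.36, 8.70 and 8.63 in ada2 and 9.70, 9.49 and 9.33 in the labelled double deletion, with nup60 and the labelled double deletion above all other arrays. It rose by 0.89 ± 0.109 in nup60 (adjusted p = 7.45e-05) and by 0.89 ± 0.109 in the labelled double deletion (2.15e-05). IES5, a subunit of INO80, rose in ada2 (0.58 ± 0.044, 1.85e-06) and in the labelled double deletion (0.73 ± 0.044, 6.15e-08). VPS75, the chaperone of Rtt109, fell in nup60 (-0.54 ± 0.079, 0.000217) and in the labelled double deletion (-0.65 ± 0.079, 2.08e-05).

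HST3, a sirtuin gene, fell in ada2 (-0.50 ± 0.047, 1.14e-05), as did NHP10, an HMG-box subunit of INO80 (-0.27 ± 0.068, 0.00831), while BDF1, a bromodomain gene, rose there (0.39 ± 0.076, 0.00181). ECO1, a cohesin acetyltransferase gene, rose in nup60 (0.32 ± 0.116, 0.0397). IOC3, a partner of Isw1, fell in nup60 (-0.45 ± 0.129, 0.0134), with wild-type levels of 10.92, 10.46 and 10.44, the highest on wild-type array 1. SAS2, the catalytic subunit of another acetyltransferase, fell in the labelled double deletion (-0.56 ± 0.064, 1.28e-05).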

How the data were processed

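RNA of 12 arrays was analysed, 3 per strain group, with groups and replicate numbers taken from the labels. The deposited values are probe set intensities. Per the submitters' processing notes, the authors made them by RMA in Affymetrix Expression Console 1.1. Per the labels' protocols, 5 µg of total RNA, isolated with TRIzol after breakage with glass beads, was labelled for each array. The intensities were on a linear scale (11.4 to 51828), and log2 was taken here with no further normalization. Probe sets were paired with genes through the platform annotation, names came from a RefSeq table of assembly R64, and the probe set with the highest mean stood for a gene. No member's probe set carries a suffix for shared sequence. The background was the 95th percentile of 1746 S. pombe probe set means. The number of arrays limits the precision.

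The group means of all 12 arrays were fitted in limma (version 3.58.1, R version 4.3.3). Variances were moderated by eBayes, with 2.58 prior degrees of freedom added to 8 residual ones, and p-values were adjusted over 5449 genes in each of 7 comparisons. The fit was tested on simulated data. Alternatives were other normalizations, a filter on dim genes, moderation and array weights, the samples in the fit, the replicate number as a block, an ACT1 3′ to 5′ covariate, removal of the trend on coding length (from the RefSeq table), and arrays left out. The labels state no pairing by replicate number. Of 18 same-numbered pairs, 4 had deviations that correlated above 0.1 (range -0.73 to 0.37). With 3 arrays per group this cannot exclude a batch shared by replicate number, and the block above is given as an alternative. Genes with full statistics were the passing genes with the largest changes, up to 4 each way against wild type and 2 each way otherwise. Genes, lists and alternatives were chosen with earlier results of these data known, and the homologue ratios, the EAF5 control probe sets and the neighbours of URA3 after seeing the values.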

Additional observations from a re-analysis of the deposited data

Results flagged for a closer look

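For 17 genes of the list the effect of losing NUP60 differed with the ADA2 background, by the limma interaction term (adjusted p below 0.05). These are 41.5% of the 41 genes, beside 39.2% of all 5449 genes, so the share is near the background. As said above, the labelled double deletion also differed in URA3 and mating type, and the part of these in the interaction was not tested. Log2 interactions above 0 were 0.62 for EPL1, 0.53 for HTL1, 0.47 for INO80, 0.42 for EAF6 and 0.32 for SNF11. Below 0 in RSC they were -0.47 for RSC8, -0.46 for RSC9, -0.46 for RSC6, -0.46 for SFH1, -0.31 for LDB7 and -0.17 for RSC4. Elsewhere they were -0.41 for CHD1, -0.34 for TAF14, -0.34 for EAF5, -0.25 for RTT102, -0.21 for SNF12 and -0.18 for RPD3.

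Of these calls, 13 passed whichever array was left out. HTL1 was lost as given above. SNF12 was lost without nup60 array 3 or ada2 array 2 or 3 (highest adjusted p = 0.0669, at -0.19), TAF14 without nup60 array 1 or 3 or ada2 array 2 (0.0541, at -0.32), and LDB7 without nup60 array 3 or ada2 array 1 (0.0547, at -0.30). Without both arrays that stood apart, the interactions of TAF14 (-0.20), LDB7 (-0.18) and EPL1 (0.40) were over 1.5 times smaller in size and still passed (adjusted p = 0.0072, 0.0101 and 0.00334).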

How the results depend on the processing

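Counts of genes of the list moved past 1.5-fold as follows, and the causes were not tested. Genes higher in nup60 than in wild type numbered 2 instead of 1 with array weights, with the ACT1 covariate and without both arrays that stood apart. Genes higher in ada2 numbered 13 with array weights, 10 with the ACT1 covariate, 11 with the length trend removed and 14 without both arrays, instead of 6. Genes lower in ada2 numbered 5 instead of 8 with the replicate block, and 5 with only the groups compared, which have fewer arrays. Interactions below 0 numbered 21 with array weights, 20 with the length trend removed and 20 without both arrays, instead of 12. Genes higher in nup60 than in ada2 numbered 7 with the length trend removed and 5 without both arrays, instead of 3. Genes higher in the labelled double deletion than in nup60 numbered 7 instead of 11 with the length trend removed. Leaving out single arrays gave ranges of 1 to 2, 4 to 8, 1 to 4 and 7 to 11 for genes higher in nup60, lower in ada2, higher in nup60 than in ada2, and higher in the labelled double deletion than in nup60. The other 319 counts stayed within 1.5-fold. Of the calls against wild type, 7 of 24 in nup60 were lost under at least 1 alternative or without at least 1 array (SWI3, RSC1, SFH1, HTL1, INO80, HDA1 and NTO1). In ada2 these were 7 of 14 (SNF6, RSC4, ESA1, EPL1, EAF5, EAF6 and SAS3), and in the labelled double deletion 3 of 30 (SNF6, SNF12 and SWI1). The differences of STH1 and INO80 between the labelled double deletion and nup60 changed sign with the length trend removed, as given above. The replicate block gave 21 genes lower in nup60 and 22 in the labelled double deletion. Against wild type it ended the calls of SWI3 (adjusted p = 0.0616) and NTO1 (0.0629) in nup60, of SNF6 (0.0729), RSC4 (0.0605), EPL1 (0.0569) and EAF5 (0.0658) in ada2, and of SNF6 (0.0708), SNF12 (0.0549) and SWI1 (0.0617) in the labelled double deletion. It also ended those of SWI3 and ISW1 between the single deletions, of NPL6, EPL1, INO80 and NTO1 between the labelled double deletion and nup60, and of ESA1, SWR1 and SAS3 between it and ada2.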
